A study of Mus musculus with 12 samples.

Results

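The epithelial lineage regulators described here were 10 genes picked by symbol: Trp63, Sfn, Grhl1, Grhl2, Grhl3, Ovol1, Esrp1, Esrp2, Epcam and Cdh1. All 10 were found among the 54232 genes of the count table, and 9 of them had enough reads to be tested, with Epcam the exception. The tumors were subcutaneous xenografts of SVR, a mouse angiosarcoma line made from endothelial cells by transformation with viral large T antigen and activated Ras. They grew in athymic nude mice of 8 to 12 weeks, while the strain given for the samples was C57BL/6. RNA of the whole tumor was sequenced after exome capture, so tumor cells and host tissue were read together. Each of 4 groups held 3 tumors, and all mice were dosed daily by oral gavage. The control group received vehicle, the trametinib group the MEK inhibitor trametinib at 1 mg/kg, the cediranib group the VEGF receptor inhibitor cediranib at 3 mg/kg, and the combination group both drugs at those doses. The treatment protocol ran until a tumor ulcerated or passed a size limit, but the study also held an experiment with a common harvest day. Which experiment supplied these tumors is not stated, and the labels do not give the day of harvest of a tumor. The comparisons ask how inhibiting MEK, the VEGF receptors or both altered expression in the tumors.

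Epithelial cells hold their identity through a small set of transcription factors and the adhesion and splicing programs these maintain. Trp63 encodes p63, the p53 relative that establishes and maintains the basal layer of stratified epithelia such as the epidermis. The Grainyhead-like factors Grhl1, Grhl2 and Grhl3 control junction and barrier genes, and Ovol1 is a zinc-finger repressor that favors the epithelial state and takes part in epidermal differentiation. Esrp1 and Esrp2 are splicing regulators that impose epithelial exon choice, for example in Fgfr2. Sfn encodes stratifin (14-3-3 sigma), the 14-3-3 protein of stratified epithelium and a known p53 target. Cdh1 encodes E-cadherin of the adherens junction, and Epcam is a surface adhesion protein of simple epithelia. Endothelial cells and mesenchymal cells normally keep most of these genes silent.

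Promoter sequence was at hand in RefSeq (GRCm38.p6) for 4 of the 10 genes. The 250 bases upstream of the start are shown for Sfn, Grhl3, Grhl1 and Epcam. They set Sfn, the most abundant of the 10 genes, beside Epcam, near the floor of detection, and 2 Grainyhead-like genes. Each runs 5′ to 3′ on the strand of the gene, and capitals mark the hexamer CAGGTG or its reverse complement CACCTG, the E-box bound by the mesenchymal repressors of the ZEB and SNAI families. The Sfn sequence lies at chr4:133602169-133602418 on the minus strand, Grhl3 at chr4:135573633-135573882 on the minus strand, Grhl1 (the first of 2 starts) at chr12:24572037-24572286 on the plus strand, and Epcam at chr17:87635729-87635978 on the plus strand.
Sfn: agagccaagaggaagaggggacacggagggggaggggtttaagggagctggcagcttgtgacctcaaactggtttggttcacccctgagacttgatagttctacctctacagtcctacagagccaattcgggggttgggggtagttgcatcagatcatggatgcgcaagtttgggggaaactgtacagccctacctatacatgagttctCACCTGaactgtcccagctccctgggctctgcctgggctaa
Grhl3: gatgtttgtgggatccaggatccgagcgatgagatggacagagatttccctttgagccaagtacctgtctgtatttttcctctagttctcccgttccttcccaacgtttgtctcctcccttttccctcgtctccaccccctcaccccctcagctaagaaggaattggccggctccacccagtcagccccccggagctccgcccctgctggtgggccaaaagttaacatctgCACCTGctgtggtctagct
Grhl1: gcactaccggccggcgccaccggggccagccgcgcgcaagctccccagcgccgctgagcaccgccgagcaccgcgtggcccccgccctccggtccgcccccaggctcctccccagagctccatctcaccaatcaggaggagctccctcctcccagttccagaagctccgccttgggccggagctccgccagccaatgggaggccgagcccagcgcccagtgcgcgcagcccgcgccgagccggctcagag
Epcam: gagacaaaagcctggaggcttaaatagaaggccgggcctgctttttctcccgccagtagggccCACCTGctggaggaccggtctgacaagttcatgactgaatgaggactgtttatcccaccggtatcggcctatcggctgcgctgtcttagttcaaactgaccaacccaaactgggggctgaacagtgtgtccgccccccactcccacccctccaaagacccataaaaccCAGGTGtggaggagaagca

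The Sfn sequence held the E-box at positions -41 to -36 from the start, Grhl3 at -19 to -14, and Epcam at both -187 to -182 and -19 to -14. Neither Grhl1 sequence held it. The E-box letters occurred in 17.2% of 32851 promoters of the same length, searched on both strands. The Grainyhead-like motif AACCGGTT, which is its own reverse complement, occurred in 0.116% of promoters, and the OVOL motif CCGTTA or TAACGG in 2.18%, and neither was found in these sequences. The first Grhl1 promoter had 75.6% GC and 27 CpG dinucleotides and the second 52% and 0, against medians of 52.4% and 6 over all promoters. The Sfn promoter had 54.4% GC and 3 CpG dinucleotides, that of Grhl3 56% and 8, and that of Epcam 56.4% and 8.

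Libraries held 9478865 to 11666094 counts per tumor, so that 3 counts, taken as the floor of detection, corresponded to 0.251 to 0.349 CPM, the read count scaled to library size. The labeled cell type was visible but weak: the summed level of 12 endothelial markers was 193 to 440 CPM in control tumors, 51 to 111 with trametinib, 111 to 327 with cediranib and 31.3 to 75.7 with the combination, and Emcn never passed 0.303 CPM. Skeletal muscle markers summed to 18000 CPM in control tumor 2 and 25300 in trametinib tumor 2, but to no more than 1760 in any other tumor. In whole-tumor RNA, fewer cells of a type and less RNA per cell cannot be told apart.

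The summed level of the 10 genes divided the tumors into a low and a high set that did not follow the groups exactly. The sum was 14.5, 5.98 and 4.65 CPM in control tumors 1 to 3, and 4.45, 4.89 and 2.76 CPM with trametinib. It was 53.7, 5.3 and 50 CPM with cediranib, and 54, 81.1 and 75.1 CPM with the combination. Cediranib tumor 2 thus stood with the control and trametinib tumors, and control tumor 1 was the highest of its group.

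**Figure D1:**
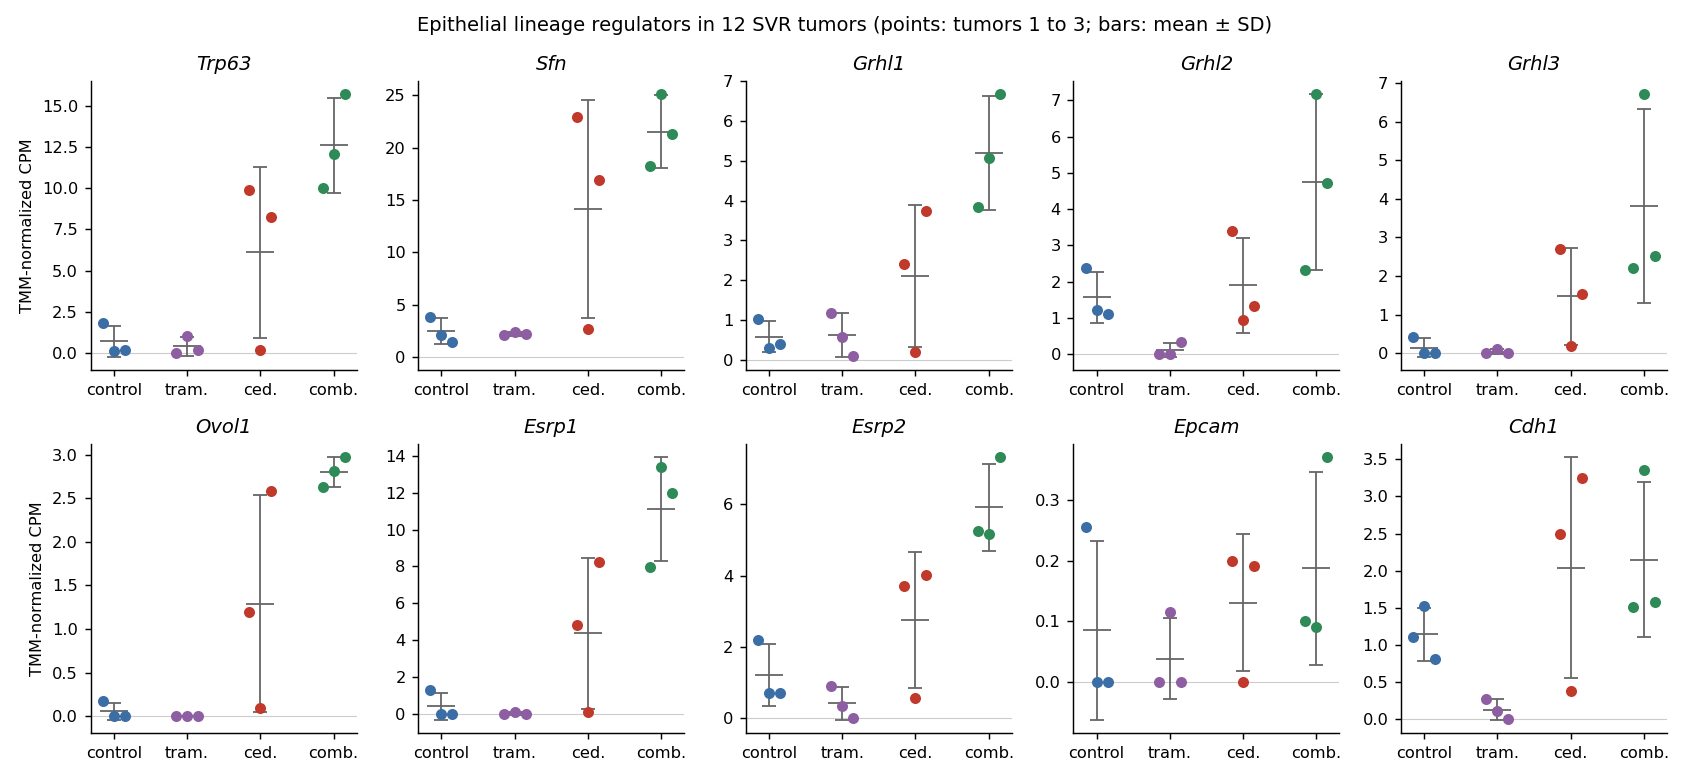
TMM-normalized CPM of each of the 10 genes in the 12 tumors (y axis, own scale for each gene) by treatment (x axis), with points for tumors 1 to 3 and bars for the mean ± SD (n = 3). Cediranib tumor 2, the middle point of its group, lies near the controls for most genes, and Epcam never rises above 0.371 CPM.

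The transcription factors begin with p63. Trp63 (chr16:25683763-25892102, plus strand, GRCm38) was read at 1.79, 0.101 and 0.202 CPM in the control tumors and at 0, 1.05 and 0.167 CPM with trametinib. With cediranib it stood at 9.89, 0.189 and 8.23 CPM, and with the combination at 10, 12.1 and 15.7 CPM. All 3 combination tumors lay above every other tumor, the closest being cediranib tumor 1, and the values in 4 tumors of the control and trametinib groups were below the floor. The combination mean was 12.6 ± 2.88 CPM against 0.697 ± 0.946 in control (SD, n = 3), a log2 fold change of 4.08 (SE 1.12, FDR = 0.0396, edgeR quasi-likelihood test with Benjamini-Hochberg adjustment over all genes, used for every FDR below). Against trametinib the log2 fold change was 5.07 (SE 1.23, FDR = 0.0707), which missed the threshold although the groups did not overlap.

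The 3 Grainyhead-like genes differed in the comparisons in which they were called, and differences between the genes were not tested. Grhl3 (chr4:135541888-135573630, minus strand), the factor of epidermal barrier formation, was read at 0.426 CPM in control tumor 1 and at 0 in control tumors 2 and 3. With trametinib it had 1 count in all, in tumor 2. It stood at 2.7, 0.189 and 1.53 CPM with cediranib and at 2.22, 6.72 and 2.51 CPM with the combination. The combination exceeded control by 4.53 on the log2 scale (SE 1.08, FDR = 0.0236). Against trametinib, 123 counts stood against 1, a 122-fold ratio after scaling with an exact binomial interval of 21.6 to 4880 that covers counting error only (FDR = 0.0466).

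Grhl1 (chr12:24572283-24617388, plus strand), which regulates desmosomal cadherins, was present at 1.02, 0.304 and 0.404 CPM in control tumors and 1.18, 0.582 and 0.0837 CPM with trametinib. These groups overlapped fully, with a log2 fold change of 0.05 (SE 0.97). It stood at 2.4, 0.189 and 3.73 CPM with cediranib and at 3.84, 5.08 and 6.68 CPM with the combination. The combination tumors were all higher than any other tumor, and the log2 fold change from control was 3.12 (SE 0.85, FDR = 0.0398). From trametinib it was 3.07 (SE 0.85, FDR = 0.0941), which was not called.

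Grhl2 (chr15:37233036-37363569, plus strand) is the family member that directly maintains E-cadherin and claudin expression. Unlike Grhl1 and Grhl3, it was not called higher in the combination than in control. It was present in every control tumor, at 2.38, 1.22 and 1.11 CPM, and nearly absent with trametinib, at 0, 0 and 0.335 CPM. With cediranib it was 3.4, 0.946 and 1.34 CPM, on both sides of the control values, and with the combination 2.32, 7.17 and 4.73 CPM. Grhl2 was the only gene of the 10 called lower with trametinib than in control, by a log2 fold change of -3.55 (SE 0.93, FDR = 0.0429), resting on 51 counts against 4. The combination exceeded trametinib by 5.13 (SE 0.89, FDR = 0.0278), while its difference from control of 1.58 (SE 0.65, FDR = 0.141) was not called and the groups overlapped. Reads of Grhl2 could include those of the antisense gene Gm16136, whose exons overlap it, since no source used here gives the strand setting of the counting. The same holds for Ovol1 (Gm31166 and AC126029.1), Esrp1 (Gm26663) and Esrp2 (Nfatc3 and 1810019D21Rik).

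Ovol1 (chr19:5549137-5560575, minus strand) came closest to an on or off reading. Control tumors held 2 counts in all, both in tumor 1 (0.17 CPM), and trametinib tumors held 0. With cediranib it stood at 1.2, 0.0946 and 2.58 CPM. The combination tumors were tightly grouped at 2.63, 2.81 and 2.97 CPM. Their 89 counts were 44.2-fold the control value (exact binomial interval 11.9 to 371, FDR = 0.0202) and at least 29.5-fold the trametinib value when 3 counts are assigned to that group (FDR = 0.0464).

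The splicing regulators differed from each other in their resting level. Esrp1 (chr4:11331933-11386679, minus strand) was read at 1.28 CPM in control tumor 1 and at 0 in the other two, and with trametinib only 1 count was found, in tumor 2. It reached 4.8, 0.0946 and 8.23 CPM with cediranib and 7.98, 13.4 and 12 CPM with the combination. The log2 fold change of the combination from control was 4.57 (SE 1.15, FDR = 0.0292). DESeq2 did not call this difference (FDR = 0.0619). Against trametinib, 356 counts stood against 1, a ratio of 354 (exact binomial interval 63.2 to 14000, FDR = 0.0464).

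Esrp2 (chr8:106130319-106136974, minus strand) was present in all control tumors, at 2.21, 0.709 and 0.707 CPM, and at 0.908, 0.349 and 0 CPM with trametinib. It was 3.7, 0.567 and 4.02 CPM with cediranib and 5.25, 5.17 and 7.33 CPM with the combination. The combination lay above every other tumor, yet neither the log2 fold change from control of 2.26 (SE 0.76, FDR = 0.0805) nor that from trametinib of 3.80 (SE 0.87, FDR = 0.062) was called. DESeq2 called Esrp2 in the combination (FDR = 0.0266), as did the fit of the control and combination tumors alone (FDR = 0.0235), and over all alternatives that kept every tumor of both groups the FDR ran from 1.14e-05 without a filter on low counts to 0.0806.

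Sfn (chr4:133600556-133602168, minus strand, a gene of 1 exon) was the most abundant of the 10 and the only one with 14 or more counts in every tumor. It stood at 3.83, 2.13 and 1.41 CPM in control tumors and at 2.09, 2.44 and 2.18 CPM with trametinib, where the log2 fold change was -0.15 (SE 0.63). With cediranib it stood at 22.9 and 16.9 CPM in tumors 1 and 3 but at 2.65 CPM in tumor 2. With the combination it was 18.2, 25.1 and 21.3 CPM, a mean of 21.5 ± 3.49 against 2.46 ± 1.24 CPM in control (SD, n = 3). The combination exceeded control by 3.11 (SE 0.60, FDR = 0.00978) and trametinib by 3.27 (SE 0.61, FDR = 0.037) on the log2 scale.

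The adhesion molecules gave no call in the combination against control by the edgeR quasi-likelihood test. Cdh1 (chr8:106603351-106669362, plus strand) was present in all control tumors, at 1.11, 1.52 and 0.808 CPM, and lower in all trametinib tumors, at 0.272, 0.116 and 0 CPM. That difference of -3.05 (SE 0.94, FDR = 0.0807) was not called. Cdh1 stood at 2.5, 0.378 and 3.25 CPM with cediranib and 1.51, 3.36 and 1.58 CPM with the combination, so that the combination overlapped control, with a log2 fold change of 0.91 (SE 0.69, FDR = 0.436). It lay above every trametinib tumor, with a log2 fold change of 3.96 (SE 0.91, FDR = 0.063) that DESeq2 called (FDR = 0.00364) and whose FDR over the alternatives that kept every tumor of both groups ran from 1.21e-06 to 0.0881.

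Epcam (chr17:87635979-87651106, plus strand) was at or below the floor of detection in all tumors but combination tumor 3, which had 4 counts. It was read at 0.255, 0 and 0 CPM in control tumors, 0, 0.116 and 0 with trametinib, 0.2, 0 and 0.191 with cediranib, and 0.101, 0.0908 and 0.371 with the combination. The 6 counts of the combination group against 3 in control gave a ratio of 1.99 (exact binomial interval 0.425 to 12.3), so that a difference was not detectable at this depth. In a fit without the filter on low counts its log2 fold change was 0.97 (SE 1.46, FDR = 0.816).

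Per kilobase of the deposited gene length, the combination tumors ranked Sfn first by a wide margin, at 13.3 ± 2.16 CPM per kb (SD, n = 3). Esrp1 (1.77 ± 0.448), Trp63 (1.5 ± 0.343), Grhl3 (1.37 ± 0.903) and Esrp2 (1.36 ± 0.282) followed, with overlapping ranges. Ovol1 (0.967 ± 0.0594) and Grhl1 (0.939 ± 0.257) were alike within their spread, as were Grhl2 (0.551 ± 0.282) and Cdh1 (0.47 ± 0.229). Epcam was last, at 0.092 ± 0.078 CPM per kb. In control tumors Sfn was also first, at 1.52 ± 0.77 CPM per kb, but Esrp2 (0.279 ± 0.2), Cdh1 (0.25 ± 0.0782) and Grhl2 (0.182 ± 0.0821) came next, and Trp63 (0.0831 ± 0.113), Esrp1 (0.0675 ± 0.117), Grhl3 (0.0509 ± 0.0882) and Ovol1 (0.0196 ± 0.0339) were lower, each with an SD larger than its mean. The order in control was therefore not that of the combination.

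Across the genes, the combination compared to control gave 6 of 9 called, all higher: Trp63, Sfn, Grhl1, Grhl3, Ovol1 and Esrp1. A call required an FDR under 0.05 and a log2 fold change of at least 1.5, and 1.91% of the 12897 genes tested were called higher. The combination and control tumors did not overlap for 7 genes, these 6 and Esrp2, against 15.6% of all genes higher without overlap. The median log2 fold change of the 9 was 3.12, and that of all genes was 0.00155. Only 2 of the 9, Sfn and Grhl2, would have passed the filter on low counts from the control and trametinib tumors. The other 7 passed through cediranib or combination tumors, where they were high, so these counts and medians, against control and against trametinib alike, describe the genes and are no support for a difference. Sfn alone was called whichever tumor was left out, at an FDR of 0.0138 to 0.046. Without control tumor 1 the 6 named genes were called, the log2 fold change of Trp63 was 6.26, and Grhl3, Ovol1 and Esrp1 had 0 counts left in control. Without control tumor 2, control tumor 3 or combination tumor 2 the count was 1 (Sfn). It was 3 without combination tumor 1 (Sfn, Grhl3, Ovol1) and 2 without combination tumor 3 (Sfn, Grhl3). The highest FDR was 0.135 for Trp63, 0.134 for Grhl1, 0.0896 for Grhl3, 0.0812 for Ovol1 and 0.101 for Esrp1, each without control tumor 3. With every tumor kept, DESeq2 also called 6 genes, with Esrp2 in place of Esrp1 (FDR = 0.0619 for Esrp1).

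The combination compared to trametinib gave 5 of 9 called, again all higher: Sfn, Grhl2, Grhl3, Ovol1 and Esrp1. Here 0.535% of all genes were called higher. All 9 genes were higher in each combination tumor than in each trametinib tumor, which held for 12.4% of all genes. The median log2 fold change was 5.07, or 4.88 with Ovol1 at its lower bound. None of these calls survived the loss of every library in turn. Without trametinib tumor 1, 2 or 3 or combination tumor 2 or 3 none of the 9 was called, and without combination tumor 1 only Grhl2 was (FDR = 0.0472). Calls over all genes also went from 87 to 16, 3 and 6 without trametinib tumors 1, 2 and 3 and to 21, 0 and 10 without combination tumors 1, 2 and 3. The highest FDR on leaving out a tumor was 0.122 for Sfn, 0.0946 for Grhl2, 0.141 for Grhl3, 0.125 for Ovol1 and 0.14 for Esrp1. Over the alternatives that kept every tumor of both groups, the count of members called ran from 2 to 9, and it was 9 with DESeq2.

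Trametinib alone compared to control gave 1 of 9 called, Grhl2, lower, where 1.43% of all genes were called lower. The groups did not overlap for Grhl2 and Cdh1, both lower with trametinib, against 12.9% of all genes. The median log2 fold change was -1.91. With every tumor kept, the Grhl2 call was lost with the replicate number in the fit and with only these 2 groups fitted. The Grhl2 call was lost without control tumor 1, 2 or 3 or trametinib tumor 1 or 2, where its FDR reached 0.129, and it held without trametinib tumor 3, the one tumor of that group with reads, at a fitted log2 fold change of -7.05 against a group at 0 (FDR = 0.0307). Cdh1 was called by DESeq2 (FDR = 0.0264), and its FDR over the alternatives that kept every tumor of both groups ran from 0.000951 to 0.126. For Trp63, Sfn, Grhl3 and Esrp1 the direction depended on control tumor 1. Without it the log2 fold changes were 1.18, 0.32, 1.87 and 1.87 in place of -0.99, -0.15, -1.91 and -3.42. Those of Grhl3 and Esrp1 then rested on 1 count with trametinib against 0 in control.

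Cediranib alone compared to control gave 0 of 9 called, where 0% of all genes were called. Before adjustment, 5 of the 9 genes had a p under 0.05 (Trp63, Sfn, Grhl3, Ovol1 and Esrp1), as did 4.32% of all genes, and the fold changes were all positive, with a median of 2.5. Sfn had the smallest p, with a log2 fold change of 2.50 (SE 0.60, FDR = 0.999). DESeq2 (FDR = 0.0127) and the edgeR likelihood ratio test (FDR = 0.0418) each called Sfn and no other of the 9, and over the alternatives that kept every tumor its FDR ran from 4.68e-14 without a filter on low counts to 1 with library totals alone. Without cediranib tumor 2 the Sfn log2 fold change was 3.00 (FDR = 0.0196), the 1 call made, and the FDR of the other 8 genes ran from 0.202 to 0.895. Without control tumor 1 no gene was called, the log2 fold change of Trp63 was 5.21 in place of 3.04, and Grhl3, Ovol1 and Esrp1 had 0 counts left in control.

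Combination against cediranib gave 0 of 9 called, where 2.45% of all genes were called and 14.1% were higher without overlap. Trp63, Grhl1, Ovol1 and Esrp2 were higher in every combination tumor than in every cediranib tumor. The smallest FDR was 0.241, none of the 9 had an unadjusted p under 0.05, and DESeq2 called 0. The difference for Trp63 was 1.05 (SE 0.92) and for Cdh1 0.08 (SE 0.67) on the log2 scale. Trametinib against cediranib gave 6 of 9 called, all lower with trametinib (Sfn, Grhl2, Grhl3, Ovol1, Esrp1 and Cdh1), where 1.97% of all genes were called lower. Cdh1 was called here by a log2 fold change of -3.88 (SE 0.91, FDR = 0.0231). Leaving out cediranib tumor 2 gave 8 calls. Leaving out trametinib tumor 1 or 3 or cediranib tumor 3 gave 1, and leaving out trametinib tumor 2 or cediranib tumor 1 gave 0. Only these 2 groups fitted together gave 0. With the filter run on these groups alone, Grhl2, Grhl3, Ovol1, Esrp1 and Cdh1 were not tested.

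**Figure D2:**
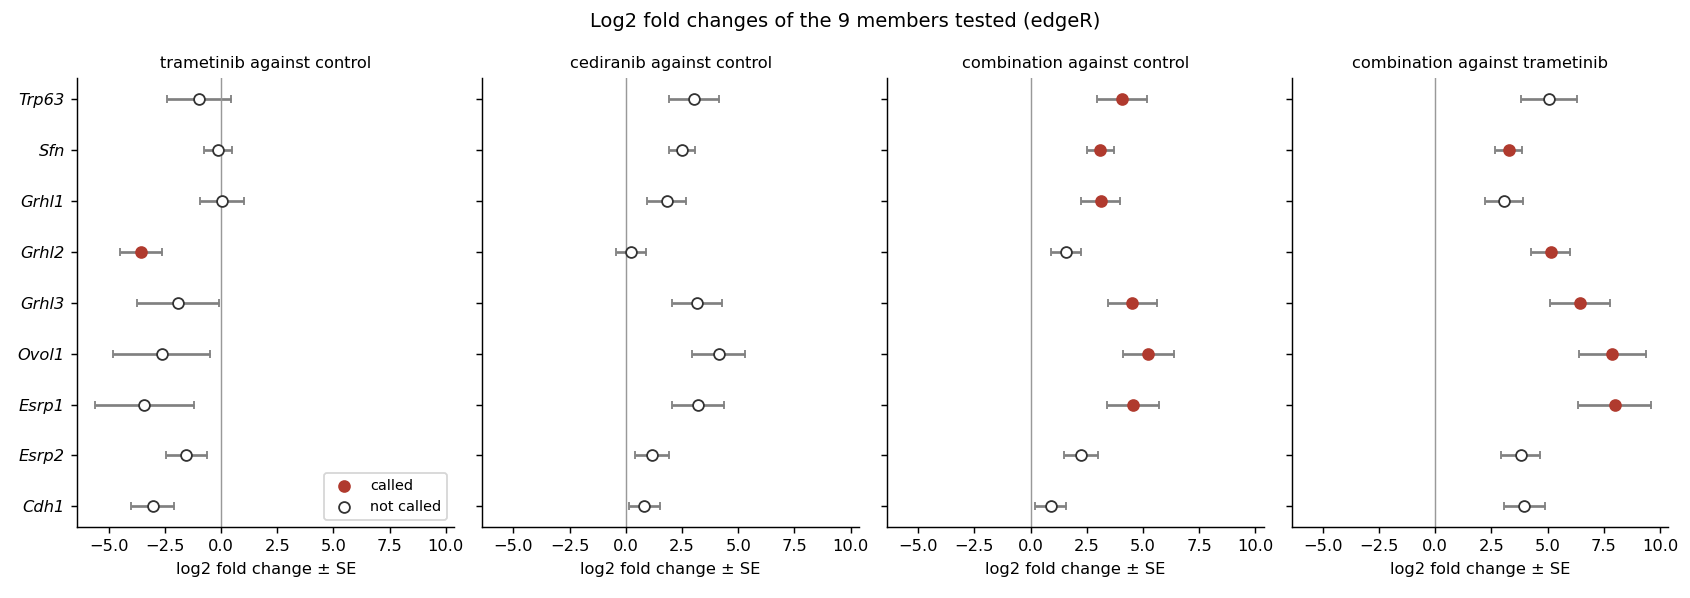
Log2 fold change ± SE (x axis) of the 9 tested genes (y axis) in 4 comparisons, from edgeR, with filled points for genes called. In the combination compared to control the 6 called genes lie between 3.11 and 5.24, and in trametinib compared to control only Grhl2 is filled; fitted values of Ovol1, Esrp1 and Grhl3 against trametinib rest on 0 or 1 count in that group.

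The 4 groups form a layout in which the effect of cediranib can be compared with and without trametinib. The difference between these effects was called for 0 of the 9 genes and for 0% of all genes tested, while 3 of the 9 had an unadjusted p under 0.05 (Grhl2, Esrp2 and Cdh1), as did 7.05% of all genes. For Grhl2 the difference was 4.88 on the log2 scale (SE 1.13, FDR = 0.5). DESeq2 (FDR = 0.0142) and the likelihood ratio test (FDR = 0.00343) called Grhl2, and over all alternatives that kept every tumor the FDR ran from 3.69e-07 without a filter on low counts to 0.524.

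Most keratinocyte markers had levels that varied with these genes. Their summed level over 12 genes was 600, 40.1 and 21.2 CPM in control tumors, 8.53, 4.77 and 2.26 CPM with trametinib, 2780, 42.1 and 1680 CPM with cediranib, and 2880, 4270 and 3060 CPM with the combination. In control tumor 2 most of the sum was the single gene Ivl (involucrin), at 33.9 CPM, while Krt14 was at 1.72 CPM. Without Ivl, a choice made after its values were seen, the remaining 11 markers summed to 593, 6.28 and 8.59 CPM in control, at most 8.53 CPM with trametinib, 2760, 9.08 and 1670 CPM with cediranib and 2870 to 4260 CPM with the combination. Ovol1 had 2 or more counts in the 6 tumors with high marker sums and 0 or 1 in each of the other 6. Of the 12 markers 10 were tested and 3 (Lor, Sbsn and Krt15) were called higher in the combination than in control, and Ivl was at 0 in all trametinib tumors. Ivl did not share the higher level of the other markers in the combination, where it was at 4.85, 7.26 and 5.38 CPM, a log2 fold change of -1.61 from control (SE 0.57, FDR = 0.104). The part of host skin in the differences between groups was not tested.

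In the 6 tumors with more than 1000 marker counts, Trp63 stood at 2.83 to 5.14 counts per 1000 marker counts, a 1.82-fold range, and Sfn at 5.9 to 10.2, a 1.73-fold range. Grhl3 covered 0.718 to 1.58 and Esrp1 1.74 to 4.94 per 1000. Cdh1 covered 0.517 to 1.95, Grhl2 0.804 to 4.02 and Ovol1 0.287 to 1.55. The upper end of Grhl2 and the lower end of Ovol1, which rested on 2 counts, were both control tumor 1. Without it Grhl2 covered 0.804 to 1.68 and Ovol1 0.434 to 1.55. The other 6 tumors (control 2 and 3, the trametinib tumors and cediranib 2) had 27 to 96 marker counts each, so their ratios are imprecise. Per 1000 marker counts, Sfn there ran from 165 to 963, Cdh1 from 0 to 242 and Grhl2 from 0 to 194. In these 6 tumors Sfn was at 1.41 to 2.65 CPM, while Ivl was at 33.9, 12.6 and 33 CPM in control tumors 2 and 3 and cediranib tumor 2. The cells from which these reads came were not tested.

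**Figure D3:**
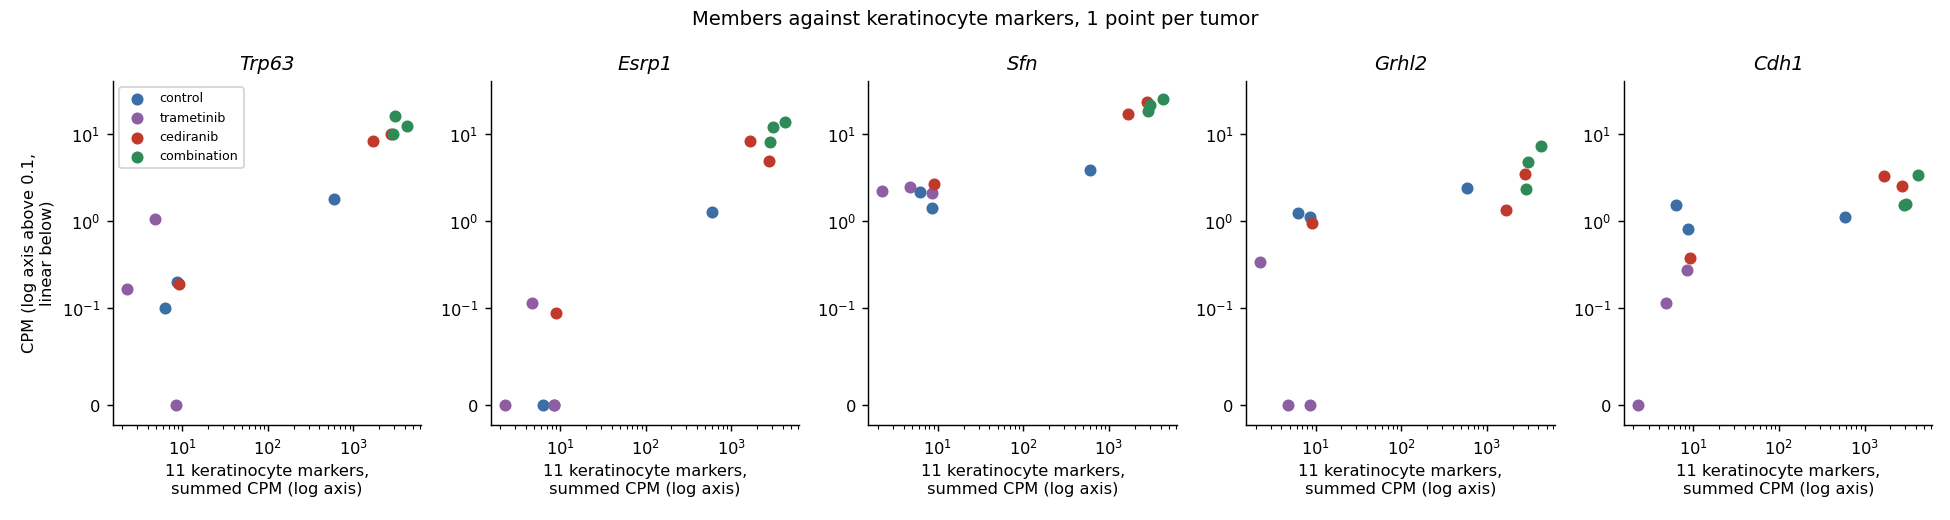
CPM of Trp63, Esrp1, Sfn, Grhl2 and Cdh1 (y axis, log scale above 0.1 and linear below) against the summed CPM of 11 keratinocyte markers (x axis, log scale), 1 point per tumor colored by treatment. The 6 tumors at high marker sums include control tumor 1 at 593 CPM, and Sfn stays between 1.41 and 2.65 CPM in the tumors with low sums while there Trp63 runs from 0 to 1.05 CPM and Esrp1 from 0 to 0.116 CPM.

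Other genes of the epithelial program were counted from lists. Among 16 other epithelial transcription factors, 11 were tested and 2 were called higher in the combination than in control: Klf4, a barrier factor also found outside epithelia (1.88, SE 0.32, FDR = 0.00591), and Hopx, an atypical homeodomain protein (3.21, SE 0.45, FDR = 0.00218). Both were also called with trametinib alone, at log2 fold changes of 1.93 and 3.00. None of the 10 regulators was called higher with trametinib alone. Klf4 stood at 73.1, 70.1 and 83 CPM with trametinib and 60.5, 65.5 and 92.3 CPM with the combination, against 30.5, 12.7 and 15.9 CPM in control. Against trametinib, Gata3 (1.73, SE 0.36, FDR = 0.0475) and Zfp750 (3.32, SE 0.65, FDR = 0.041), a p63 target of terminal differentiation, were called higher in the combination.

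Of 16 genes listed as targets of p63 or the Grainyhead-like factors, 14 were tested and 3 were called higher in the combination than in control, with a median of 2.75 over the list. Ppl and Evpl encode the cornified-envelope proteins periplakin (2.79, SE 0.52, FDR = 0.00845) and envoplakin (3.53, SE 0.93, FDR = 0.0407), and Lamb3 a chain of laminin-332 (2.63, SE 0.65, FDR = 0.0266). Against trametinib 3 were called, Lamb3, Evpl and Tgm1, and trametinib against control gave 0. Ppl was present with trametinib, at 39.9, 29.7 and 32.9 CPM, as were others of the list, such as Dst at 193, 206 and 109 CPM. The list shares Krt5 and Krt14 with the keratinocyte markers.

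Partners of EPCAM and E-cadherin showed little change: of 14, 10 were tested, 1 was called higher in the combination than in control, and the median was 0.174. That gene was Nectin4, an adhesion molecule of adherens junctions (2.06, SE 0.42, FDR = 0.0119), which was also called higher than with trametinib (2.27, SE 0.43, FDR = 0.037). All 12 mesenchymal factors were tested and 0 were called in the combination against control, with a median of 0.121, and the most abundant were Vim at a mean of 6770 CPM and Fn1 at 3450 CPM over all tumors. With trametinib 11 of these 12 had positive values against control and 0 were called.

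The relatives of the splicing and 14-3-3 genes did not follow them. Of 8 other splicing regulators, among which Mbnl1 and Srsf1 were the most abundant, 0 were called in the combination against control, with a median of 0.0787. Of the 6 other 14-3-3 genes 0 were called, with a median of -0.207, and Ywhae had a mean of 1700 CPM over all tumors against 10.1 for Sfn. Of 6 p53 family members and targets, 5 were tested and 0 were called in the combination against control, with a median of -0.573. Trp53 was read at 10.6 to 23.5 CPM over the 12 tumors, and Trp73, the other p53 relative, was never above 0.363 CPM.

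**Figure D4:**
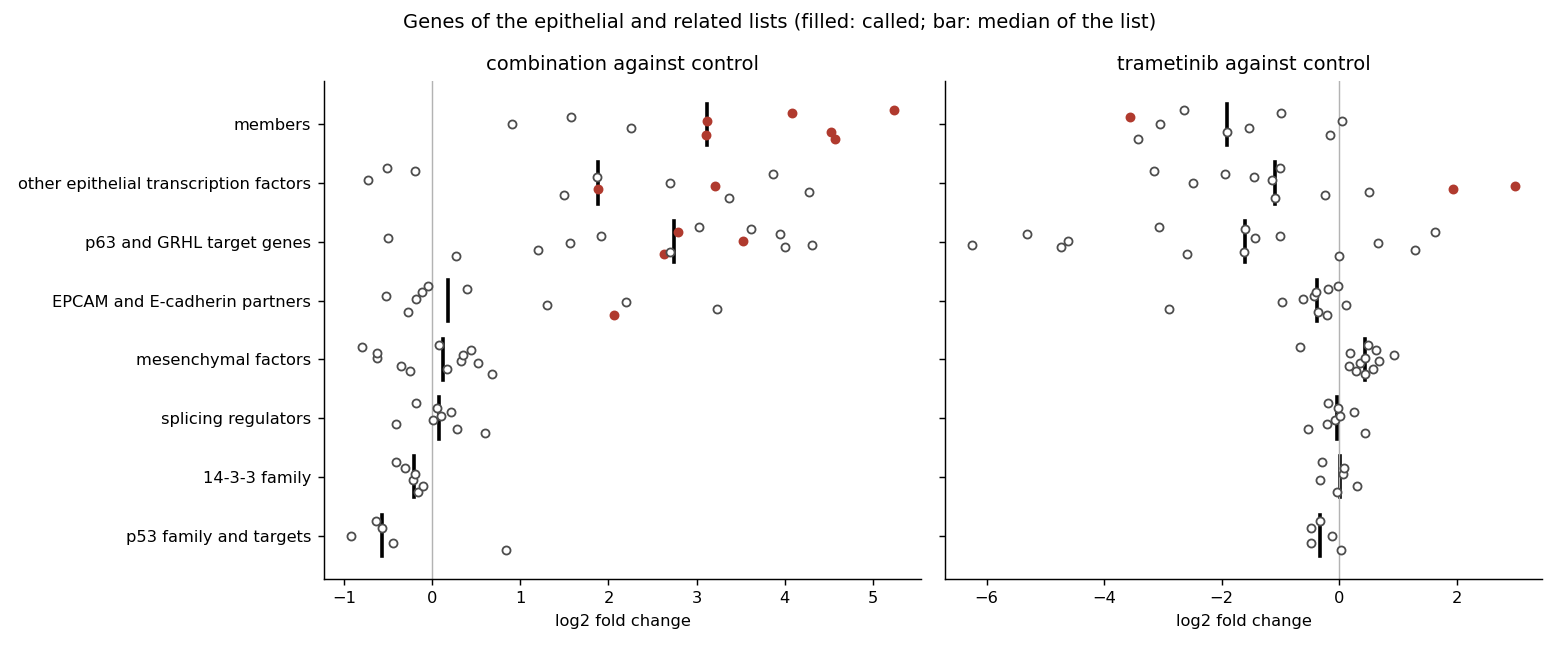
Log2 fold changes (x axis) of single genes in 8 lists (y axis) for the combination and for trametinib compared to control, with filled points for genes called and a bar at the median of each list. In the combination the median of the 9 regulators tested lies at 3.12 and that of the p63 and GRHL target genes at 2.75, while the mesenchymal, splicing and 14-3-3 lists lie near 0.

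The genes whose pattern over the 12 tumors was most like that of Trp63, by the root mean square difference of centered log2 CPM, were Gm47061 at 0.454, Gsdma at 0.532 and Esrp1 at 0.572, where the median over all tested genes was 2.41. Gm47061 is an antisense transcript whose exons overlap those of Tfap2a, and its reads cannot be told apart from those of Tfap2a without strand. For Cdh1 they were Bcl11a at 0.606, Il1b at 0.617 and Ocln at 0.657, with a median of 1.36 over all genes. Epcam had too few reads for this measure.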

How the data were processed

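Total RNA from 12 SVR xenograft tumors, 3 per group, was made into exome-capture libraries that were sequenced in the same lane, and the methods describe its degradation as relatively high. Samples were assigned to treatments by title, and 0 columns of the table were unused. The authors called bases with bcl2fastq 1.8.4, aligned to GRCm38 with STAR 2.7.1a and deposited raw counts per gene from featureCounts 1.6.0. No source used here gives the annotation release, the strand setting or how reads with several matches were treated. The deposited table also gave a length for each gene, used for CPM per kb, and positions were matched to GENCODE M21. Which of the study's treatment experiments supplied the tumors is not stated.

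Counts were analyzed in R 4.3.3 with edgeR 4.0.16 (TMM scaling, filterByExpr with a minimum count of 10 and a minimum total of 15, quasi-likelihood test), with all 12 tumors in 1 fit. A call needed a Benjamini-Hochberg FDR under 0.05 over all 12897 genes tested and a log2 fold change of at least 1.5 in size. SEs were derived from the fold change and its F value. CPM values used TMM-scaled totals, and intervals of count ratios were exact binomial at 95%. The biological coefficient of variation between tumors of a group was 27.2% over all genes (square root of the edgeR common dispersion). The p-values set differences between groups against the spread between these tumors. DESeq2 1.42.0, other scalings, filters and fits and the loss of each tumor were tried. The 10 genes, the gene lists and the tests were chosen with earlier results of these data known. Of each other list, up to 4 called genes with the smallest p in the combination against control and then against trametinib were named, or else the 2 most abundant. Scripts were tested on simulated data.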

Additional observations from a re-analysis of the deposited data

How the results depend on the processing

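Member counts are of the 9 genes tested in the main fit. With DESeq2 in place of the edgeR quasi-likelihood test they were 2 for trametinib against control (main 1), 1 for cediranib against control (main 0), 9 for the combination against trametinib (main 5) and 1 for the interaction (main 0). The edgeR likelihood ratio test, added after the data were seen, gave 2, 1, 9 and 1 for the same comparisons. Without the filter on low counts they were 3, 6, 9 and 4. With only the 2 groups compared in the fit, they were 0 for trametinib against control, 9 for the combination against trametinib and 0 for trametinib against cediranib (main 6). In the fits of 2 groups the filter used only those tumors, and genes it removed were not tested. From control and trametinib tumors only 2 of the 9 passed it, Sfn and Grhl2. The cause of the differences between settings was not tested. RLE size factors, library totals alone (also added later) and the absence of a minimum fold change left every count of members as it was. Over all alternatives that kept every tumor, the combination against control gave 6 to 8 calls and the combination against cediranib 0.

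Tumors with the same replicate number did not deviate together (correlations of deviations from -0.219 to 0.356), so the numbers were not treated as pairs. With the number as a replicate block the members called were 0 for trametinib against control, 2 for the combination against trametinib and 3 for trametinib against cediranib, and the counts of the other comparisons were unchanged.

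On leaving out each tumor in turn, with 2 tumors then standing for a group, the members called ranged from 0 to 1 for trametinib against control, 0 to 1 for cediranib against control, 1 to 6 for the combination against control, 0 to 1 for the combination against trametinib, 0 to 8 for trametinib against cediranib, and stayed at 0 for the combination against cediranib and the interaction. Only the loss of a tumor turned a direction. For trametinib against control the log2 fold change ranged from -2.92 to 1.18 for Trp63, -0.43 to 0.32 for Sfn, -0.92 to 0.75 for Grhl1, -3.83 to 1.87 for Grhl3, -3.12 to 0 for Ovol1 and -5.32 to 1.87 for Esrp1. The upper ends of Grhl3 and Esrp1 rested on 1 count with trametinib against 0 in control. The log2 fold change ranged from -0.47 to 0.68 for Grhl2 in cediranib against control. For Cdh1 in the combination against cediranib it ranged from -0.42 to 0.59. The interaction ranged from -0.12 to 3.96 for Trp63, -0.49 to 5.20 for Grhl3 and -0.51 to 6.67 for Esrp1. With every tumor kept, 425 fold changes of single genes kept their direction and side of the threshold, 45 were newly called and 10 were no longer called.

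Counts over all genes moved by more than 1.5 times in some settings. For the combination against trametinib they were 87 in the main test, 347 with DESeq2, 401 with the likelihood ratio test, 773 without a filter, 274 with the 2 groups alone and 57 with the block. Without a filter they were 687 for trametinib against control (main 310), 324 for cediranib against control (main 0), 1129 for the combination against control (main 466), 637 for the combination against cediranib (main 316), 973 for trametinib against cediranib (main 450) and 261 for the interaction (main 0). DESeq2 and the likelihood ratio test gave 10 and 14 for cediranib against control and 28 each for the interaction, and the latter 721 for trametinib against cediranib. Without a minimum fold change they were 789, 1287, 991 and 1116 for trametinib, combination, combination against cediranib and trametinib against cediranib. Depth limited the low genes: Grhl1, Grhl3, Ovol1, Esrp1 and Epcam each had at most 19 counts over the 3 control tumors together.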

Other observations

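Several marker lists of other cell types had levels that differed between the groups. Hair follicle markers summed to 1.11 to 5.56 CPM in control, 0.921 to 3.26 CPM with trametinib, 1.5 to 602 CPM with cediranib and 191 to 469 CPM with the combination. Of 10 tested, 5 were called higher in the combination than in control, the 4 with the smallest p being Lhx2, Krt71, Msx2 and Krt25, and Lhx2 had a log2 fold change of 3.39 (SE 0.84, FDR = 0.0273, edgeR quasi-likelihood test). Krt71, a keratin of the inner root sheath, was at 355 CPM in cediranib tumor 3 but at 0.0999 CPM in cediranib tumor 1, whose Krt14 level was 1690 CPM. The 2 cediranib tumors with high keratinocyte markers therefore differed in follicle markers, while both had Trp63 above 8 CPM.

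Of 4 simple epithelium markers tested, 2 were higher and 2 lower in the combination than in control, and 1, Krt18, was called. Krt18 was called lower with trametinib (-2.03, SE 0.45, FDR = 0.0206) and with the combination (-3.76, SE 0.50, FDR = 0.00169) than in control, and was read at 17.3, 54 and 27 CPM in control tumors and 4.34, 0.908 and 2.04 CPM with the combination. Endothelial markers were called lower for 3 of 9 genes tested with trametinib and for 6 of 9 with the combination, led by Pecam1 in the combination (-2.93, SE 0.49, FDR = 0.0059). Mammary markers were at 0 apart from Prlr, which reached 0.743 CPM, and Cd207, which marks Langerhans cells, was at most 0.191 CPM. The Langerhans list summed to 33.7 to 137 CPM over all tumors, with 0 of 4 tested called in the combination against control. Sebaceous gland markers summed to 22.4 to 72 CPM, most of it Soat1 in every tumor, with 0 of 3 called. Awat1 and Fa2h reached 5.48 and 5.75 CPM in combination tumor 3. Both were at 0 in control tumors 2 and 3, all trametinib tumors and cediranib tumor 2. Fibroblast markers summed to 1580 to 36900 CPM, with 0 of 7 called in the combination against control. Of these 7, 3 were called higher with trametinib than with cediranib. Adipocyte markers summed to at most 9.55 CPM, with 0 of 2 called. Macrophage markers summed to 371 to 643 CPM in control and 159 to 288 CPM with the combination, and 1 of 6, Cd68, was called lower (-1.59, SE 0.33, FDR = 0.0127). Of 6 muscle markers 0 were called in the combination against control.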
